A study of Mus musculus with 28 samples.

Results

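The genes described here are 40 genes of the mammalian cell cycle: the D-type cyclins and their kinases, the regulators of the step from G1 into S phase, proteins that license replication origins and make DNA, the kinases and cyclins that start mitosis, and the proteins of the mitotic chromosome and spindle. The MCM helicase genes are not among them. They were chosen by symbol, with no measured value in the rule, but with earlier results of these data known. All 40 symbols were found among the 53392 genes of the transcript annotation.

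The study measured messenger RNA by sequencing in endothelial cells and proximal tubules of kidneys from male FVB mice after ischaemic acute kidney injury. The 28 samples fall into 10 groups, each cell type with 5: sham mice without injury, untreated injured mice, and injured mice given scrambled miRNA, given exosomes, or given a miR-486-5p mimic. Scrambled miRNA is a control RNA without a designed target, exosomes are vesicles that cells release, and a mimic is a synthetic RNA that takes the place of the natural miRNA. The labels give RNA from 3 mice in most groups and 2 libraries in each mimic group. Endothelial cells were captured with magnetic beads against CD31, an endothelial surface protein, and tubules were dissected from digested kidney, so both are bulk samples. Values per library were analysed for 16 libraries in 6 groups: in each cell type 3 for scrambled miRNA, 3 for exosomes and 2 for the mimic, all from injured mice. The sham and untreated groups were analysed through the authors' deposited comparison tables alone. What cells the exosomes came from is not stated in the labels.

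A cell that leaves rest first makes D-type cyclins, which with CDK4 and CDK6 phosphorylate the retinoblastoma protein and so release E2F factors. E2F then turns on the genes for cyclin E, origin licensing and nucleotide and DNA synthesis. A later wave, driven by FOXM1 and the MuvB complex, turns on the mitotic genes. In the healthy kidney most tubule and endothelial cells are at rest, and after ischaemic injury surviving tubule cells re-enter the cycle.

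The promoters of 5 of these genes are shown because Uhrf1, Rrm2 and Top2a are called in tubules below, with Rrm1 as the partner of Rrm2 and Mki67 as a proliferation marker. Uhrf1 guides maintenance of DNA methylation at the replication fork, Rrm1 and Rrm2 encode the subunits of ribonucleotide reductase, Top2a encodes the topoisomerase that untangles replicated chromosomes, and Mki67 encodes the proliferation antigen Ki-67. The sequences come from RefSeq on GRCm38.p6 and run 5′ to 3′ on the gene's own strand, ending before the first annotated base of the gene. They lie at chr17:56303087-56303320, + strand, for Uhrf1, at chr12:24708004-24708240, + strand, for Rrm2, at chr7:102441445-102441694, + strand, for Rrm1, at chr11:99024190-99024439, - strand, for Top2a, and at chr7:135716380-135716629, - strand, for Mki67. Capitals mark matches on either strand to the E2F letters (TTCCCGC or TTCGCGC or TTGCCGC or TTGGCGC), to the cell cycle homology region known from mitotic promoters (TTTGAA or TTCGAA), or to CCAAT.
Uhrf1: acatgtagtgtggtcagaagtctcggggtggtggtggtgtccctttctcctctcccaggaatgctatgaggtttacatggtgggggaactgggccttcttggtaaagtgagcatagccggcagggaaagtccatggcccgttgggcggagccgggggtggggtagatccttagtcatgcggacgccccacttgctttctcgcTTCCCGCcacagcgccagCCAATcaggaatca
Rrm2: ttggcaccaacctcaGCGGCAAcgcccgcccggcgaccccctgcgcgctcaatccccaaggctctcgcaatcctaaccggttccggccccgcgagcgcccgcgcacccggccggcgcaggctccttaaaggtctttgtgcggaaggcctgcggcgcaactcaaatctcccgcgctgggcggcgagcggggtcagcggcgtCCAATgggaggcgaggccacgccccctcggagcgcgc
Rrm1: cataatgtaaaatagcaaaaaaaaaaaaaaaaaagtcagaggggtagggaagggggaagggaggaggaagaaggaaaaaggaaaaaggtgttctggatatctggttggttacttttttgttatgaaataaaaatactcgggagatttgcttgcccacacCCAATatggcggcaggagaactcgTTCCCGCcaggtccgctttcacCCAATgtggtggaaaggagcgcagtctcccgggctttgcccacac
Top2a: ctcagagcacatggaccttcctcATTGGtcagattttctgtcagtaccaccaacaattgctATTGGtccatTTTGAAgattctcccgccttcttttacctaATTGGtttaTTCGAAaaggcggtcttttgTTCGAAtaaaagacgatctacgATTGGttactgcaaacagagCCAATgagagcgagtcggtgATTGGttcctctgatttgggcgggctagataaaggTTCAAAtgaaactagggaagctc
Mki67: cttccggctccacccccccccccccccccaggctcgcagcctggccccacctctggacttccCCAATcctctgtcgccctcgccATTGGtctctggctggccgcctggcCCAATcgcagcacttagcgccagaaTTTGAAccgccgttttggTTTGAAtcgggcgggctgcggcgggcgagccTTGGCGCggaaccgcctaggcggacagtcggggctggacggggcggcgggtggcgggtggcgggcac

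The windows of Uhrf1, Rrm2 and Rrm1 each held 1 match to the E2F letters, at 48, 235 and 67 bases before the RefSeq start. The Top2a window held none, but had 4 matches to the homology region and 6 to CCAAT. The Mki67 window held all of the motifs, with 1 E2F match, 2 homology region matches and 3 CCAAT matches. The letters TTGGCGC and the reverse of CCAAT can share bases, but no matches overlap in these windows. Of the 40 genes, 32 had a RefSeq promoter in the table, in 35 windows, each searched over 250 bases before the start. The E2F letters were found in 9 of the 32 genes, or 28.1%, against 9.01% of all 27025 genes in the table. By role they were in 4 of 8 genes of origin licensing and DNA synthesis and in 1 of 12 genes of chromosomes and spindle. The homology region letters ran the other way, in 1 of 8 and 6 of 12 genes, with 10 of 32 in all and 19.6% of all genes in the table. CCAAT was found in 23 of 32 genes, among them 5 of 5 for entry into mitosis and 10 of 12 for chromosomes and spindle, and in 37.5% of all genes in the table. No letters of the 3 kinds were found in the searched window of Cdt1. A match describes the letters in the window and is not evidence of a bound factor.

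The 16 libraries held 8273783 to 25326882 reads assigned to genes. Levels below are CPM, the reads of a whole gene in every 1000000 reads of a library scaled by the trimmed mean of M values (TMM), and are given in library order. Most of the 40 genes were rare: the median over the 16 libraries was under 10 reads for 13 genes and under 20 reads for 23, while 9 reached 100 reads and 4 reached 500. Differences are log2 folds with standard errors from edgeR's quasi-likelihood test, and a gene was called where its p, adjusted by Benjamini-Hochberg over all genes tested, was under 0.05. The labels do not say which libraries share a mouse, so the p-values measure the spread between these samples.

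The endothelial markers separated the libraries and the proximal tubule markers did not do so fully, and each preparation held markers of the other type. Summed TPM (transcripts of a gene in every 1000000, corrected for length) of 12 endothelial markers were 484 to 1072 in the endothelial libraries and 31.5 to 80.1 in the tubular ones. The 6 markers of the thick ascending limb, another tubule segment, summed to 3663 to 13965 in the endothelial libraries, and the 14 proximal tubule markers to 1725 to 16372. The proximal tubule markers summed to 15127 to 46386 in the tubular libraries, so the ranges overlapped. The first endothelial exosome library, at 16372, lay above the third tubular scrambled library, at 15127. In the tubular libraries, 13 tubule injury markers summed to 377 to 2066 with scrambled miRNA, 112 to 263 after exosomes and 76.9 to 150.0 with the mimic. Macrophage markers, 11 genes, summed there to 29.2 to 66.7, 11.7 to 26.4 and 7.31 to 14.2, and the 8 neutrophil markers to 5.06 to 30.9, 0.956 to 1.64 and 0.134 to 1.86. In these bulk samples fewer cycling cells and less RNA per cell cannot be told apart, nor can a tubule cell that divides be told from a dividing cell of another type.

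**Figure D1:**
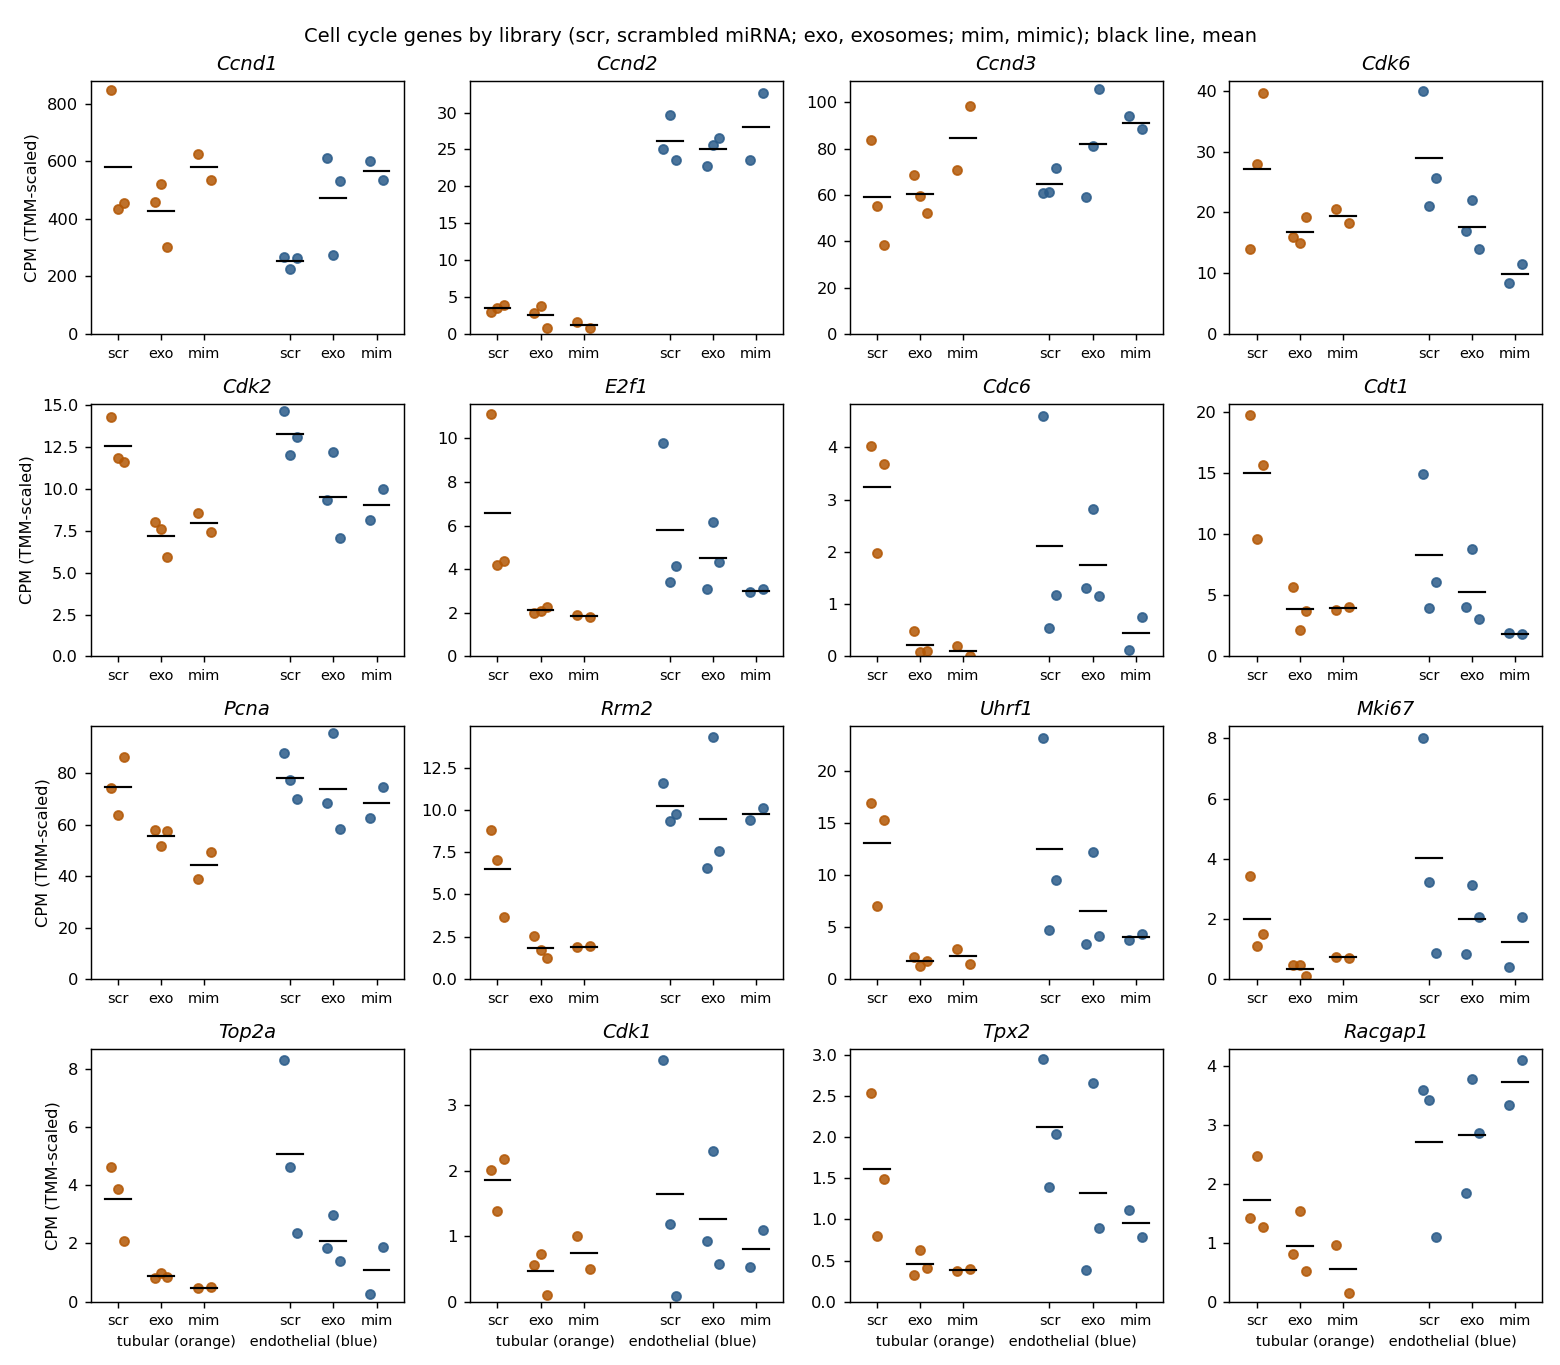
Level of 16 cell cycle genes in each of the 16 libraries, in TMM-scaled CPM on a linear axis from 0, for scrambled miRNA (scr), exosomes (exo) and mimic (mim); points are libraries and black lines are group means. In the tubular libraries (orange) Cdc6, Cdt1, Rrm2, Uhrf1, Mki67, Top2a and Cdk1 are lower in all exosome and mimic libraries than in all scrambled ones, whereas the endothelial libraries (blue) overlap in most panels. In tubules Cdc6, Mki67 and Tpx2 had enough reads to be tested through the scrambled libraries alone, so they are low elsewhere by selection.

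In the tubules, 3 of the 8 genes for origin licensing, DNA synthesis and its maintenance (Uhrf1, Cdt1 and Rrm2) were lower with exosomes than with scrambled miRNA. Top2a fell too, and none of the 40 genes rose. Cdt1 loads the replicative helicase at origins, and the other 3 genes were introduced with their promoters. Of the 31 genes with enough reads to be tested, 4 were called, all lower, where 5.13% of all 14913 genes tested were called in either direction and 2.41% were called lower. The median log2 fold of the 31 genes was -0.81, against -0.02 for all genes tested, and 27 of the 31 folds were negative. The calls moved with single libraries: leaving out any 1 of the 3 exosome libraries left 0 calls, leaving out the second scrambled library left 1, and leaving out the third scrambled library gave 6. A fit that adjusts for transcript length called 0. DESeq2 called 9 lower, where it called 12.2% of all genes in either direction, 922 higher and 894 lower.

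Uhrf1 lies at chr17:56303321-56323486 and was at 16.9, 7.05 and 15.3 CPM with scrambled miRNA and 2.08, 1.26 and 1.76 with exosomes. All exosome libraries lay below all scrambled ones, with a log2 fold of -2.93 ± 0.43 (edgeR, adjusted p = 0.0239). Cdt1, at chr8:122568015-122573554, was at 19.8, 9.63 and 15.6 with scrambled miRNA and 5.69, 2.16 and 3.73 with exosomes. The groups again did not overlap, and the log2 fold was -1.96 ± 0.38 (edgeR, adjusted p = 0.0317). Rrm2, at chr12:24708241-24714146, was at 8.81, 7.05 and 3.68, then 2.57, 1.71 and 1.24, where the values before the word then are scrambled libraries and those after it exosome libraries, as in the sentences that follow. The groups did not overlap, with the third scrambled library nearest to the exosome range. Its log2 fold was -1.82 ± 0.43 (edgeR, adjusted p = 0.0456). The other subunit, Rrm1, was at 29.5, 17.9 and 32.5, then 18.9, 15 and 15.6, and the second scrambled library lay within the exosome range. Its fold of -0.69 ± 0.23 did not pass (edgeR, adjusted p = 0.112).

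Pcna, the sliding clamp of the replication fork and the most abundant gene of this role, was at 74.4, 63.8 and 86.4 with scrambled miRNA and 57.9, 51.9 and 57.6 with exosomes. These groups did not overlap, but the fold was only -0.42 ± 0.15 (edgeR, adjusted p = 0.128). Cdc6, the partner of Cdt1 in loading the helicase, had the largest fold of the genes tested, -3.75 ± 0.92, from 4.03, 1.99 and 3.68 to 0.481, 0.0902 and 0.104 CPM. It missed the threshold with an adjusted p of 0.0502 by edgeR, and is named here after its values were seen. Cdc45, part of the moving helicase, was at 3.81, 4.67 and 6.20, then 1.92, 1.80 and 2.69 without overlap, with an adjusted p of 0.0825 by edgeR. Tyms, which makes thymidylate, was at 29.8, 31.1 and 32.2, then 25.8, 27.5 and 30.9, and its ranges overlapped.

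The D-type cyclins and kinases, by contrast, gave 0 calls among 5 genes. Ccnd1, the cyclin that couples growth signals to the cycle, was at 847, 435 and 457 with scrambled miRNA and 459, 519 and 303 with exosomes. The first scrambled library stood far above the rest and the others overlapped (log2 fold -0.44 ± 0.29). Ccnd3, the D-type cyclin of many differentiated cells, was at 83.5, 55.1 and 38.5, then 68.7, 59.6 and 52.4. Ccnd2, the remaining D-type cyclin, was at 2.91, 3.57 and 3.91, then 2.89, 3.79 and 0.829. Both overlapped between the groups, and the third exosome library was the lowest for Ccnd2. Cdk4, a kinase partner of these cyclins, was at 72.3, 68.0 and 88.4, then 71.7, 72.4 and 65.2, with overlap. Cdk6, the other partner, was at 14.0, 27.9 and 39.6, then 16.0, 15.1 and 19.3. For Cdk6 the first scrambled library was below all exosome libraries and the other scrambled libraries were above them.

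Of the genes for the step from G1 to S, 3 of 5 were tested and 0 called. Cdk2, the kinase partner of cyclin E, was at 14.3, 11.8 and 11.6, then 8.02, 7.57 and 5.91, without overlap (log2 fold -0.81 ± 0.21, edgeR, adjusted p = 0.0548). E2f1, the activating factor, was at 11.1, 4.17 and 4.37, then 2.00, 2.07 and 2.28, also without overlap (log2 fold -1.63 ± 0.44, edgeR, adjusted p = 0.0610). Ccne2, a cyclin E, was at 2.31, 2.18 and 4.83, then 2.57, 0.721 and 2.28, which overlapped. E2f8, a repressing family member, was too rare to test, at 0.224, 0.695 and 0, then 0, 0.180 and 0.311.

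Among the genes for entry into mitosis, 4 of 7 were tested and 0 called. Cdk1, the kinase of mitotic entry, was at 2.02, 1.39 and 2.18 with scrambled miRNA and 0.561, 0.721 and 0.104 with exosomes, without overlap (log2 fold -1.97 ± 0.70, edgeR, adjusted p = 0.127). Ccna2, cyclin A, was at 2.54, 1.99 and 0.804, then 0.962, 0.631 and 1.14. The spindle kinase Aurka was at 1.94, 0.596 and 1.03, then 0.722, 0.811 and 0.725. Both overlapped, and the first scrambled library was the highest for each. Ccnb2, a cyclin B that was not tested, was at 0.746, 0 and 0, then 0.160, 0.270 and 0.104, with no read in the second and the third scrambled library.

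Of the 15 genes for chromosomes, spindle, checkpoint and cytokinesis, 11 were tested and only Top2a, at chr11:98992943-99024189, was called. It was at 4.63, 3.87 and 2.07 CPM with scrambled miRNA and 0.802, 0.992 and 0.829 with exosomes. The exosome libraries lay close together and all below the scrambled ones (log2 fold -2.01 ± 0.48, edgeR, adjusted p = 0.0481). Mki67 was at 3.43, 1.09 and 1.49, then 0.481, 0.451 and 0.104, without overlap. Its log2 fold of -2.50 ± 0.73 did not pass (edgeR, adjusted p = 0.0757). Tpx2, which activates Aurora A on the spindle, was at 2.54, 0.794 and 1.49, then 0.321, 0.631 and 0.414. The checkpoint kinase Bub1, not tested, was at 0.970, 0 and 0, then 0, 0 and 0.207. Tpx2 did not overlap between groups, while Bub1 had reads in 1 library of each.

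The other tested genes of these roles had log2 folds between -1.37 ± 0.85 for Kif11, a motor that separates spindle poles, and 0.78 ± 0.65 for Nusap1, which bundles spindle microtubules. Between them lay Birc5, Cdc20, Cenpe, Kif20a, Prc1, Racgap1 and Foxm1, which act in the chromosomal passenger complex, anaphase, chromosome alignment, cytokinesis and mitotic transcription. The smallest adjusted p among these genes was 0.269 by edgeR. Their levels were 0 to 3.25 CPM over the 8 tubular libraries.

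In all, 12 of the 31 tested genes were lower in every exosome library than in every scrambled one and 0 were higher, beside 14.5% of all genes tested that were lower without overlap. The filter on low reads can keep a rare gene through 1 group alone. Cdc6 had 20 to 54 reads in the scrambled libraries, at most 6 with exosomes and at most 5 with the mimic. Mki67 had 11 to 46 reads in the scrambled libraries, at most 6 with exosomes and at most 18 in the deeper mimic libraries. Tpx2 had 8 to 34 reads, then at most 7 and at most 9. Such genes are low outside that group by selection. The count here, the lack of overlap of these genes, and the median and signs of the folds above, are thus partly set by the filter. The 9 genes left untested in tubules, Ccne1, E2f8, Ccnb1, Ccnb2, Plk1, Aurkb, Bub1, Bub1b and Cenpf, had 0 to 18 reads in a library. The summed level of the 22 genes for entry and chromosomes was 37.0, 21.6 and 16.9 CPM with scrambled miRNA, 10.7, 15.5 and 9.22 after exosomes and 14.3 and 12.9 with the mimic. The first scrambled library had the highest sum of the 8 and the third exosome library the lowest. The injury, macrophage and neutrophil markers also had lower sums with exosomes and with the mimic than with scrambled miRNA, as given above. With exosomes 8 of the 13 injury markers fell, with a list median log2 fold of -4.09, and 1 of 11 macrophage markers fell. Within the scrambled group the order depended on which cell cycle genes were summed. In library order the injury markers summed to 377, 1233 and 2066 TPM, the macrophage markers to 29.2, 49.9 and 66.7 and the neutrophil markers to 5.32, 30.9 and 5.06. The first scrambled library was thus the highest for the sum of the 22 genes and the lowest of its group for injury and macrophage markers. The 8 genes for origin licensing, DNA synthesis and its maintenance summed to 187, 143 and 196 CPM in these libraries. For them the third scrambled library was the highest of its group, as it was for injury and macrophage markers. The part of these markers in the difference of the cell cycle genes was not tested.

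Other genes of the pathway were counted in the same test. Of 36 further S phase genes 34 were tested, and 10 fell and 0 rose. Of all genes tested 5.13% were called, and 2.41% were called lower. The limit from the filter on low reads holds for these lists too. The 10 S phase genes include Lig1, the ligase that joins Okazaki fragments (-1.97 ± 0.29, adjusted p = 0.0239 by edgeR), Hells, a chromatin remodeller of replicating cells (-2.57 ± 0.41), and Chaf1b of the chromatin assembly factor (-2.72 ± 0.57). Of 48 further G2 and M phase genes 26 were tested and 0 were called by edgeR. At an unadjusted p under 0.05 there were 9, where 24.8% of all genes had one. DESeq2 called 1 higher and 4 lower, where it called 12.2% of all genes in either direction. Among 14 tested CDK inhibitors and pocket proteins, Cdkn1a, the p53 target that arrests the cycle, fell by 2.09 and Cdkn2c, an inhibitor of CDK4 and CDK6, rose by 0.82 on the log2 scale. Their adjusted p values by edgeR were 0.0421 and 0.0273.

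The tubular mimic group had 2 libraries and gave no call, although many genes were lower in both than with scrambled miRNA. Uhrf1 was at 2.90 and 1.43, Cdt1 at 3.82 and 4.05, Rrm2 at 1.91 and 1.93 and Top2a at 0.456 and 0.494 CPM, all below the scrambled libraries. The log2 fold of Uhrf1 against scrambled miRNA was -2.58 ± 0.48 and that of Top2a -2.88 ± 0.57 (edgeR, adjusted p = 0.109 and 0.109). Cdc6 was at 0.207 and 0, Mki67 at 0.747 and 0.691 and Cdk1 at 0.996 and 0.494. Each of these was also below every scrambled library, though Cdc6 and Mki67 passed the filter on low reads through the scrambled libraries alone. Pcna was at 38.9 and 49.6, Cdk2 at 8.55 and 7.41 and E2f1 at 1.91 and 1.83, again under all scrambled libraries.

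The D-type genes with the mimic were at 626 and 536 for Ccnd1, 1.58 and 0.741 for Ccnd2, 70.9 and 98.6 for Ccnd3, 53.0 and 53.1 for Cdk4 and 20.6 and 18.3 for Cdk6. Ccnd2 and Cdk4 were below all scrambled libraries and the other 3 overlapped with them. The remaining genes followed by library were at 1.41 and 0.247 for Ccne2, 0 and 0.148 for E2f8, 0.913 and 1.09 for Ccna2, 0.581 and 0.346 for Ccnb2, 0.705 and 1.14 for Aurka, 0.124 and 0 for Bub1 and 0.373 and 0.395 for Tpx2. Of these, Ccne2 and Tpx2 were below all scrambled libraries.

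Against scrambled miRNA, edgeR called 0 of the 31 genes with the mimic, and 0.0201% of all genes. At an unadjusted p under 0.05 it gave 14 of the 31, all lower, beside 16.3% of all genes in either direction, 1332 of those 2427 lower. DESeq2 called 8 lower, beside 5.19% of all genes in either direction, 301 higher and 472 lower. The genes lower without overlap were 18 of 31, beside 15.9% of all genes, and the median log2 fold was -0.82 against -0.03. This comparison shares its scrambled libraries with that of exosomes, and the same limit from the filter on low reads holds for its counts and median. Mimic against exosomes gave 0 calls by edgeR among the 31 genes (0% of all genes), with 2 at an unadjusted p under 0.05 (12.4% of all genes) and 0 by DESeq2 (3.57% of all genes). The member median there was 0.02, and the 2 genes were Tyms (-0.52 ± 0.15) and Cdk4 (-0.40 ± 0.15).

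**Figure D2:**
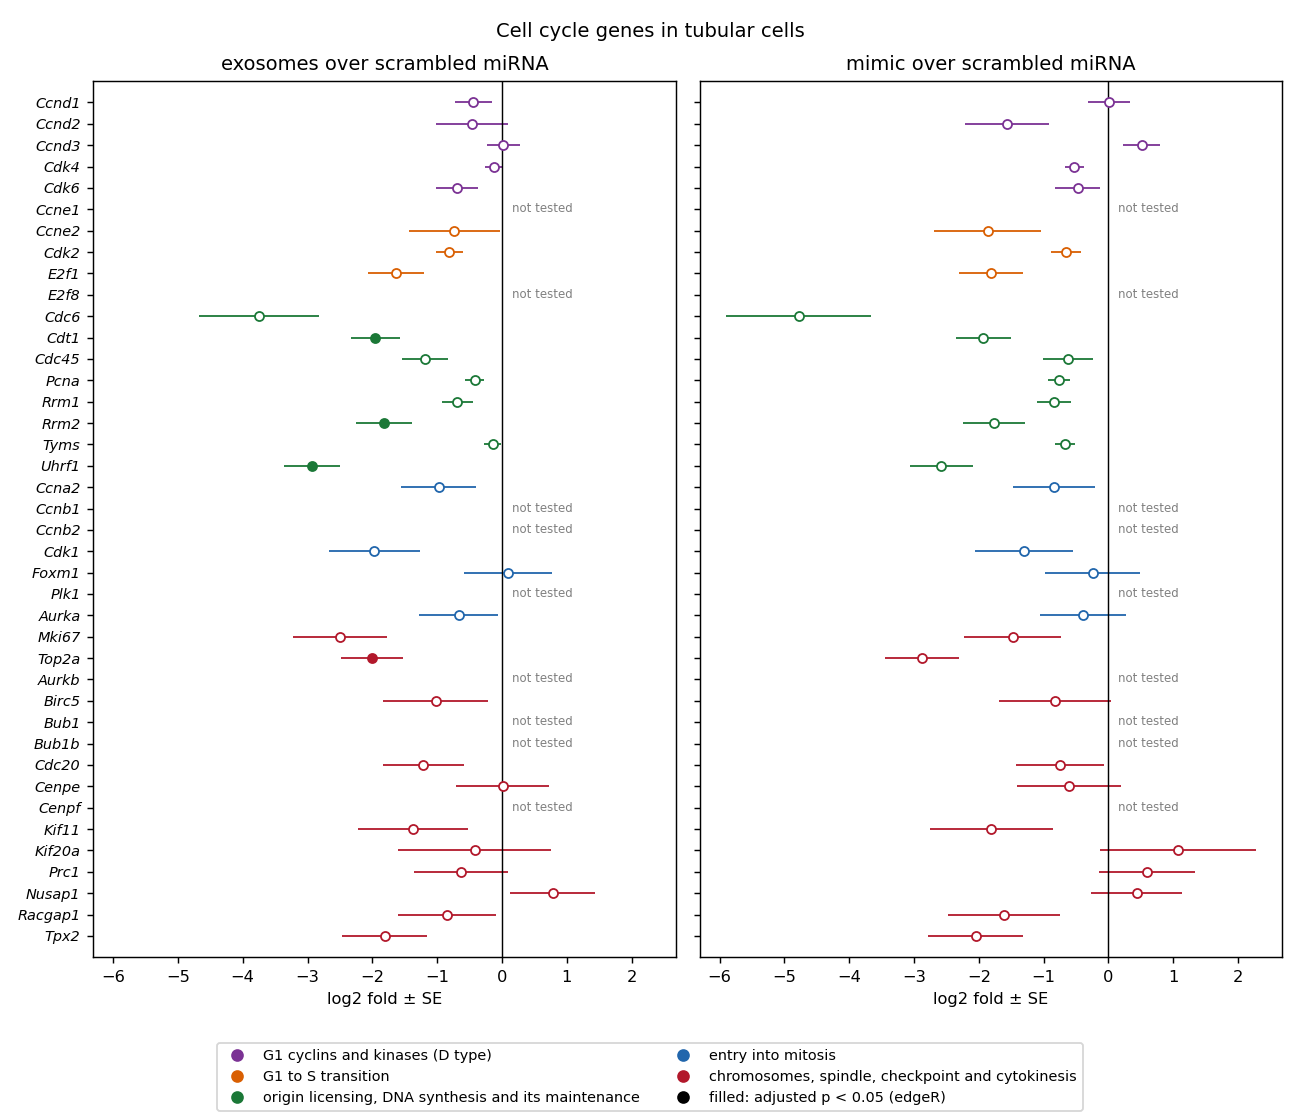
Log2 fold ± SE of the tested genes in tubules, exosomes (left) and mimic (right) over scrambled miRNA, coloured by role, with filled points for adjusted p under 0.05 by edgeR. With exosomes 27 of 31 folds lie left of 0 and 4 points are filled; with the mimic none is filled.

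In the endothelial libraries no gene of the 40 was called between treatments. For exosomes against scrambled miRNA, edgeR called 0 of 39 tested genes (0% of all 16316 genes). At an unadjusted p under 0.05 there were 2 (11.4% of all genes), DESeq2 called 0 (2.53%), and 1 gene was lower without overlap (5.96%). The member median was -0.39 against 0.02 for all genes, and leaving out 1 library moved it from -0.68, without the second exosome library, to -0.00, without the first scrambled library. The folds of the 39 genes ran from -2.27 ± 1.38 for Bub1 to 0.92 ± 0.28 for Ccnd1. The limit from the filter on low reads holds for these counts, folds and medians too. Bub1 reached 1.47 CPM with scrambled miRNA and at most 0.370 with exosomes, so it passed the filter through scrambled libraries alone. Single libraries stood above the rest of their groups: the 22 genes for entry and chromosomes summed to 62.1, 30.2 and 15 CPM with scrambled miRNA, 14.6, 34.8 and 20.8 after exosomes and 15 and 21.9 with the mimic. The first scrambled library and the second exosome library were the highest of their groups.

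Uhrf1 was at 23.2, 4.72 and 9.49 with scrambled miRNA, 3.39, 12.2 and 4.10 after exosomes and 3.74 and 4.29 with the mimic. Cdt1 was at 14.9, 3.97 and 6.12, then 4.09, 8.81 and 3.03, then 1.91 and 1.81, in the order scrambled miRNA, exosomes, mimic, which the next sentences keep. For both, the first scrambled library was the highest of the 8, and the exosome libraries overlapped with the scrambled ones. Rrm2 was at 11.6, 9.32 and 9.73, then 6.55, 14.3 and 7.54, then 9.39 and 10.1. Pcna was at 87.9, 77.4 and 69.9, then 68.4, 95.6 and 58.2, then 62.6 and 74.6. The second exosome library had the highest level of each.

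Top2a was at 8.29, 4.61 and 2.35, then 1.85, 2.96 and 1.39, then 0.263 and 1.88. Mki67 was at 8.01, 3.22 and 0.863, then 0.848, 3.11 and 2.05, then 0.394 and 2.07. For both, the first scrambled library was the highest and the first mimic library the lowest. Tpx2 was at 2.95, 1.39 and 2.04, then 0.385, 2.67 and 0.902, then 1.12 and 0.790. Bub1 was at 1.47, 1.29 and 0, then 0.0771, 0.370 and 0.0820, then 0.131 and 0. The first scrambled library was again the highest of each. Cdk1 was at 3.68, 1.18 and 0.0784, then 0.925, 2.30 and 0.574, then 0.526 and 1.09. Ccna2 was at 3.04, 0.643 and 0.157, then 0.385, 1.56 and 0.738, then 0.328 and 0.414. Aurka was at 2.76, 0.857 and 0.471, then 0.771, 1.78 and 0.902, then 1.05 and 1.24. In these 3 genes the scrambled group held both the highest and the lowest library. Ccnb2 was at 0.921, 1.39 and 0.471, then 0.0771, 0.444 and 0.246, then 0.526 and 0.602, and it was the tested gene that was lower without overlap in the exosome libraries.

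The D-type genes differed in direction from one another. Ccnd1 was at 267, 226 and 263 with scrambled miRNA, 611, 276 and 531 after exosomes and 599 and 534 with the mimic. All 5 treated libraries lay above the scrambled ones, the second exosome library by little. The log2 folds were 0.92 ± 0.28 for exosomes and 1.17 ± 0.30 for the mimic (edgeR, adjusted p = 0.259 and 0.0928), and DESeq2 called the latter. Cdk6 was at 40.1, 21.1 and 25.7, then 16.9, 22.1 and 14.0, then 8.41 and 11.5, and both mimic libraries were the lowest of the 8 (mimic log2 fold -1.54 ± 0.33, edgeR, adjusted p = 0.0651). Ccnd2 was at 25.1, 29.7 and 23.6, then 22.8, 25.6 and 26.6, then 23.5 and 32.7, which overlapped throughout. Ccnd3 was at 60.7, 61.4 and 71.9, then 59.1, 81.0 and 106, then 93.9 and 88.4. Cdk4 was at 66.0, 51.8 and 62.8, then 47.7, 57.9 and 45.6, then 40.8 and 47.6. Both mimic libraries were above the scrambled ones for Ccnd3 and below them for Cdk4.

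Of the G1 to S genes, Cdk2 was at 14.6, 12.0 and 13.1, then 9.33, 12.2 and 7.05, then 8.15 and 9.97. E2f1 was at 9.76, 3.43 and 4.16, then 3.08, 6.15 and 4.34, then 2.96 and 3.09. Both were highest in the first scrambled library. Ccne2 was at 3.13, 1.07 and 2.12, then 1.70, 3.11 and 1.56, then 0.460 and 0.979. E2f8 was at 1.11, 0.750 and 0.314, then 0.385, 0.370 and 0.410, then 0.0657 and 0.640. The mimic libraries of Cdk2, E2f1 and Ccne2 lay below all scrambled libraries, and those of E2f8 did not.

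For the mimic against scrambled miRNA in endothelial cells, edgeR called 0 of 39 genes (0% of all genes) and gave 8 at an unadjusted p under 0.05 (19.5% of all genes). DESeq2 called Ccnd1 higher and Cdk6 and Cdt1 lower (8.31% of all genes called). The folds ran from -3.86 ± 1.78 for Bub1 to 1.17 ± 0.30 for Ccnd1. The genes lower without overlap were 12 of 39, beside 21.8% of all genes. The median was -0.93 against 0.01, and it was -0.30 without the first scrambled library. These counts, folds and medians are again partly set by the filter on low reads, which Bub1 passed through scrambled libraries alone. Injury markers summed to 9997 to 12911 TPM with scrambled miRNA, 917 to 6240 after exosomes and 968 to 1382 with the mimic. Thick ascending limb markers were at 3663 to 8344, 5891 to 9656 and 12578 to 13965, and the part of either in the cell cycle values was not tested. Mimic against exosomes gave 0 calls (0% of all genes), 3 at an unadjusted p under 0.05 (4.05%), 0 by DESeq2 (0.0307%) and a median of -0.44, which was -0.11 without the second exosome library and -0.68 without the second mimic library. Against scrambled miRNA, 1 or 2 mimic calls appeared when the second or the first exosome library was left out of the shared spread, and 1 exosome call without the second exosome library. None of the further pathway genes was called by edgeR in endothelial cells or with the mimic in tubules.

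**Figure D3:**
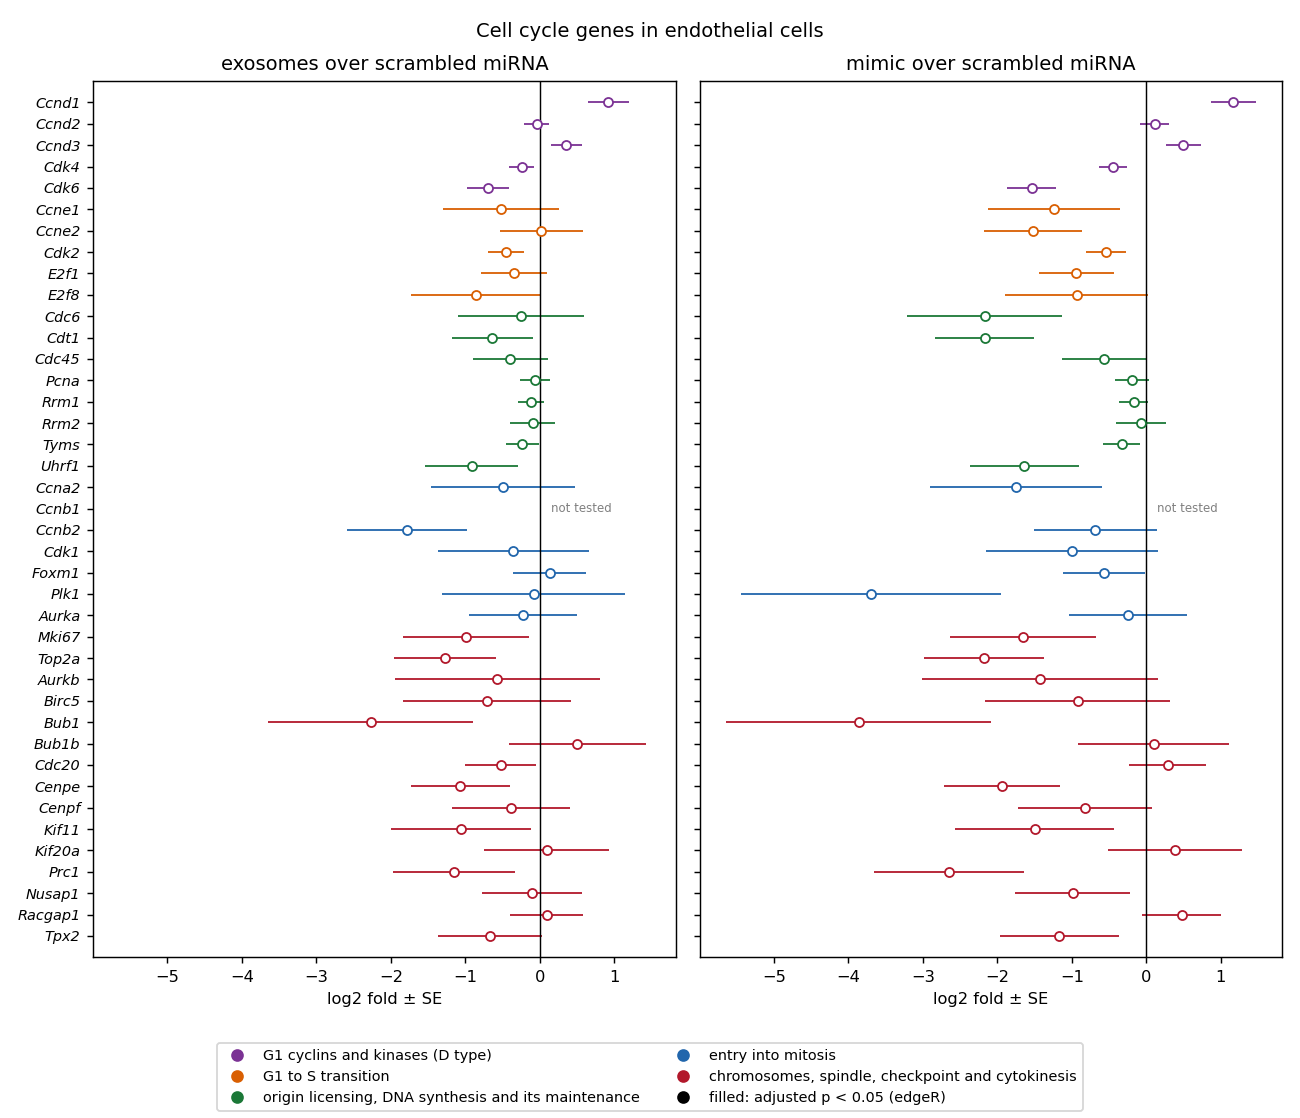
Log2 fold ± SE of the tested genes in endothelial cells, exosomes (left) and mimic (right) over scrambled miRNA, coloured by role; a filled point would mark an adjusted p under 0.05 by edgeR and there is none. Ccnd1 lies to the right of 0 in both panels and Cdk6 and Cdt1 to the left.

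Whether the response differed between the cell types was tested with all 16 libraries and all 40 genes. The exosome effect in endothelial cells less that in tubules gave 0 calls by edgeR (0% of all genes), 6 genes at an unadjusted p under 0.05 (7.78%) and 0 by DESeq2 (0.233%). The 6 were all positive, with Rrm2 at 1.70 ± 0.52 and Ccnd1 at 1.35 ± 0.44 having the smallest p, and the median difference was 0.52. The mimic effect gave 0 calls (0% of all genes), 4 at an unadjusted p under 0.05 (15.5%) and 0 by DESeq2 (3.66%). Rrm2 was again among them, at 1.70 ± 0.56 (edgeR, adjusted p = 0.187), and the median difference was 0.31. Without the first endothelial scrambled library the medians were 1.32 and 0.78, and without the second endothelial mimic library that of the mimic was -0.11. The tubular calls are therefore not shown to be particular to tubules.

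Between the cell types themselves, as a mean over the 3 treatments, 12 of the 40 genes were higher and 2 lower in endothelial libraries. Of all 17143 genes tested, 66.2% were called, 36.3% higher and 29.9% lower, so the 14 of 40 called here lie under the background. Ccnd2 differed most, with 22.8 to 32.7 CPM in the endothelial libraries and 0.741 to 3.91 in the tubular ones, a log2 fold of 3.60 ± 0.24 (edgeR, adjusted p = 1.79e-08). No library of one type reached the other. The mitotic genes Bub1b (2.87 ± 0.77), Cenpf (1.95 ± 0.60), Racgap1 (1.64 ± 0.40), Mki67 (1.42 ± 0.52), Foxm1 (1.11 ± 0.35), Tpx2 (1.07 ± 0.42) and Top2a (0.99 ± 0.39) were higher in endothelial libraries. So were Rrm2 (1.77 ± 0.23), Uhrf1 (0.92 ± 0.37), Rrm1 (0.51 ± 0.13) and Pcna (0.37 ± 0.12). Tyms (-1.02 ± 0.11) and Cdk4 (-0.36 ± 0.09) were lower. Bub1b and Cenpf had too few reads to be tested in tubules, with at most 7 and 9 reads in a tubular library. They passed the filter on low reads here through endothelial libraries alone, so they are low in tubules by selection. The median was 0.49 against 0.06 for all genes. The 12 higher calls, this median, and the splits and lists below are thus partly set by the filter. Several of these calls were lost under other settings: of 21 alternatives, Tpx2 was not called in 12, Top2a in 10, Uhrf1 in 10 and Mki67 in 6. Leaving out 1 library at a time gave log2 folds of 0.72 to 1.23 for Tpx2, 0.31 to 1.24 for Top2a, 0.65 to 1.12 for Uhrf1 and 0.87 to 1.66 for Mki67. The lowest folds of Top2a and Mki67 came without the second endothelial mimic library.

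The split of these calls moved with single libraries. Without the first endothelial scrambled library 7 genes were higher and 5 lower, with a median of 0.28, without the second endothelial exosome library 8 and 3, and with the adjustment for transcript length 10 and 4. Of the further pathway lists in the unchanged fit, there were 11 higher and 6 lower of 36 further S phase genes and 11 and 4 of 42 further G2 and M genes. Among 15 CDK inhibitors and pocket proteins 7 were higher, with Cdkn2b at 4.86 ± 0.47 and Cdkn1a at 2.57 ± 0.29, and 4 were lower, with Cdkn2c at -1.47 ± 0.17. All 11 macrophage and all 11 lymphocyte markers were higher in the endothelial libraries too. So were 5 of 6 tested neutrophil markers, 9 of 13 tubule injury markers, 5 of 6 thick ascending limb markers, 8 of 8 distal and collecting duct markers and 6 of 6 podocyte markers. Of the 14 proximal tubule markers 13 were lower. The part of these cell types was not tested.

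**Figure D4:**
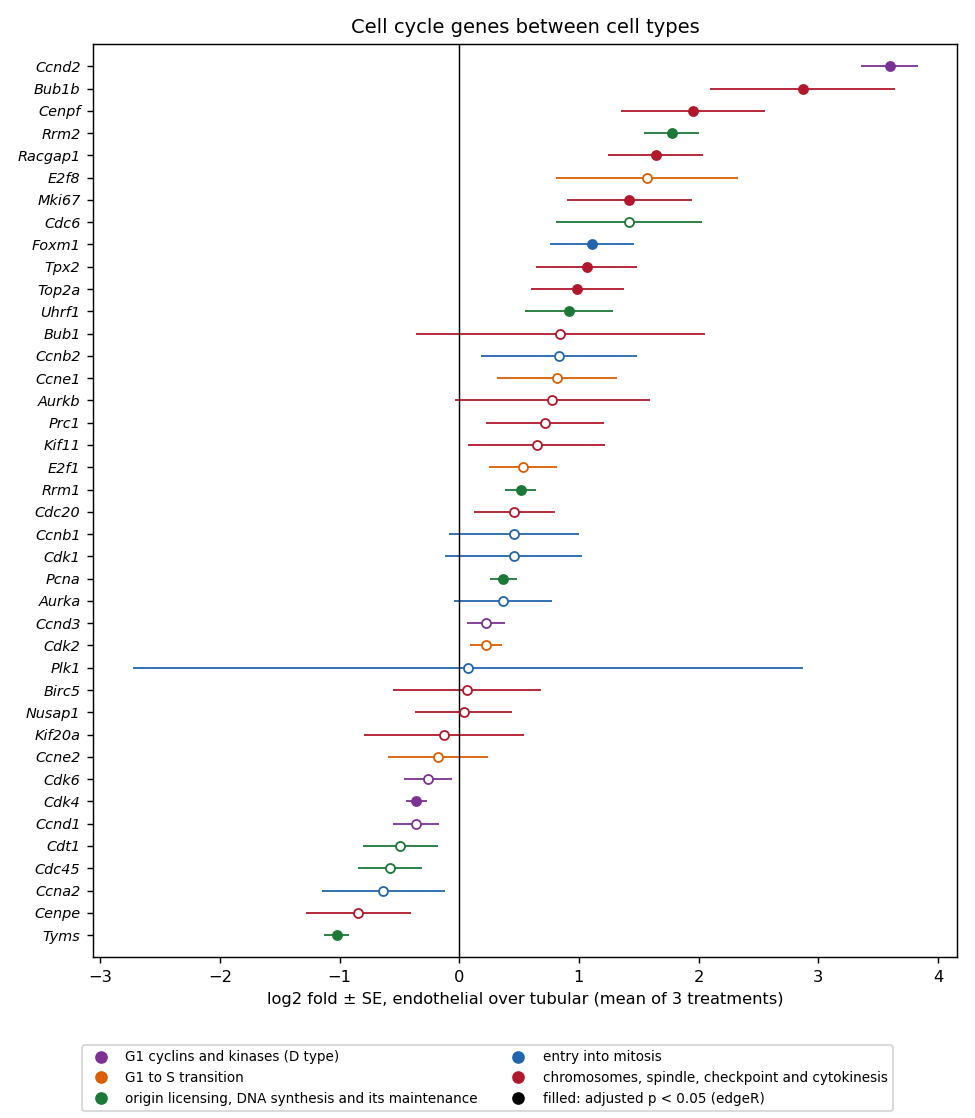
Log2 fold ± SE of all 40 genes, endothelial over tubular libraries, as the mean over 3 treatments, coloured by role and sorted; filled points have an adjusted p under 0.05 by edgeR. Ccnd2 lies farthest right, and Tyms and Cdk4 are the filled points left of 0. Bub1b and Cenpf passed the filter on low reads through endothelial libraries alone, so they are low in tubules by selection.

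Set against transcript length, Ccnd1, Pcna, Ccnd3 and Cdk4 were far more abundant than the other genes. The median over the 16 libraries, in CPM for each kilobase of the longest coding transcript, was 131 for Ccnd1, 43.5 for Pcna, 33.0 for Ccnd3 and 29.4 for Cdk4. Rrm1 followed at 5.99, while Bub1 was the lowest at 0.0232. Mki67 was at 0.0972 and Top2a at 0.357 on this scale. The order did not follow role throughout: Cdk6 was at 1.63, and Ccne1, at 0.221, lay below the mitotic gene Cdc20, at 0.807.

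The effect of injury itself was available from the authors' deposited tables, whose folds and adjusted p values are given as deposited, the first-named group over the second. In tubules of untreated injured mice against sham, the authors' deposited table called 5 of the 40 genes higher: Ccne2 by 2.43, Cdt1 by 1.81, Rrm2 by 1.46, Pcna by 0.84 and Cdk2 by 0.82 on the log2 scale. It called Ccnd2 lower, at -2.78. Of all genes with an adjusted p, 20.2% were called there, 11.5% higher and 8.65% lower. In endothelial cells the authors' deposited table for the same contrast called only Rrm2, at 1.15 (adjusted p = 0.0140), where 4.41% of all genes were called.

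Untreated injury against exosome treatment in tubules gave 5 higher in the authors' deposited table, Cdt1 (2.55), Rrm2 (2.00), Ccnb1 (1.84), Foxm1 (1.48) and Cdk2 (1.29). Cenpe (-1.52) and Tyms (-0.84) were lower in untreated mice in the authors' deposited table. The background was 30.9% called, 17.6% higher and 13.3% lower. Against the mimic, the authors' deposited table had Cdt1 (2.74), Rrm2 (2.18), Uhrf1 (1.79), Foxm1 (1.47) and Pcna (0.67) higher and Cenpe (-1.55) lower. There 22.9% of all genes were called, 14.1% higher and 8.78% lower. Cdt1, Rrm2 and Foxm1 were called higher in untreated mice in both, and these comparisons share their untreated samples. Per the labels the untreated samples are a re-analysis of an earlier series, so treatment and the source of the samples cannot be told apart in either.

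Untreated injury and injury with scrambled miRNA also differed in the tubules. The authors' deposited table called 1 gene higher in untreated mice, Nusap1 (1.75), and 6 lower: Ccnd2 (-4.51), Top2a (-2.29), Cdc6 (-1.64), E2f1 (-1.49), Tyms (-0.92) and Ccnd1 (-0.81). Of all genes 17.8% were called, 11.1% higher and 6.75% lower. The member median in the authors' deposited table was -0.22 against 0.01 for all genes. Both groups were injured, and the sham and untreated samples are a re-analysis of an earlier series per the labels, so scrambled miRNA and the source of the samples cannot be told apart. Top2a, called lower with exosomes against scrambled miRNA above, was thus also higher in the scrambled than in the untreated group, and was not called between untreated and exosome-treated tubules (log2 fold -1.03 in the authors' deposited table, adjusted p = 0.0656).

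Treated injury against sham gave few calls. Here too, and between untreated and treated endothelial cells, treatment and the source of the samples cannot be told apart. In tubules the authors' deposited table had Ccne2 higher (1.55) and Ccnb1 (-3.00) and Ccnd2 (-0.24) lower with exosomes, where 11.2% of all genes were called. With the mimic it had only Ccnd2 lower (-0.02), where 1.03% were called. In endothelial cells the authors' deposited table had Prc1 (2.70) and Rrm2 (0.95) higher with exosomes (6.73% of all genes) and Cenpf (2.47) and E2f8 (2.08) higher with the mimic (11.6% of all genes). Untreated against mimic-treated endothelial cells had Cdt1 (2.87), Cdk6 (1.45), Ccne2 (1.29) and Cdk2 (0.98) higher in the authors' deposited table, with 10.2% of all genes called. Untreated against exosome-treated endothelial cells gave 0 calls in the authors' deposited table (3.77% of all genes) and 3 at an unadjusted p under 0.05 (13.6%). Untreated against scrambled there gave 0 (0.757%) and 4 (11.1%).

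**Figure D5:**
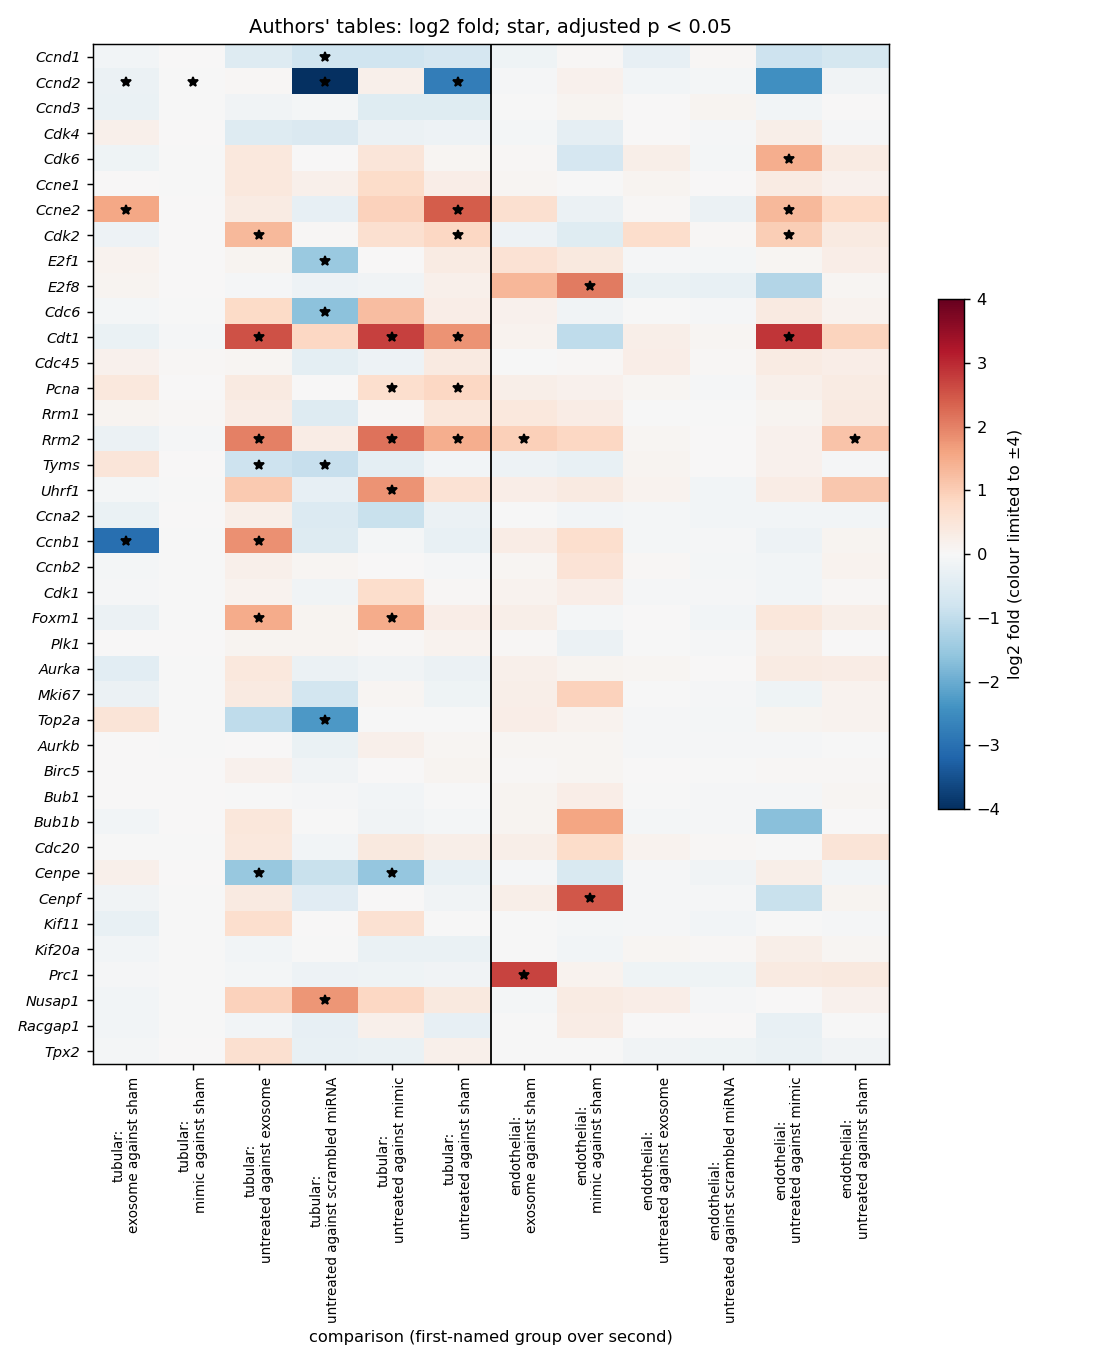
Log2 folds of the 40 genes in the 12 deposited comparison tables, tubular on the left and endothelial on the right, with colour for the fold (limited to 4 either way) and a star for an adjusted p under 0.05. The 39 stars lie mostly in tubular columns, and Cdt1 and Rrm2 carry one in each of the tubular columns for untreated injury against sham, exosomes and mimic.

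The tubular level of Ccnd2 depended on how reads were turned into levels. With scrambled miRNA it had 39, 35.6 and 34 reads and 0.276, 0.274 and 24.4 TPM in the tubules. The third library thus had a similar read number but a far higher TPM. Of its TPM, 24.1 came from 1.97 estimated reads on a single short transcript of 115 bases that codes for no protein. The base mean of Ccnd2 in the authors' deposited table was 479.8 for tubules. In edgeR the exosome fold moved from -0.46 ± 0.55 to -5.25 ± 1.82 with an adjustment for transcript length (adjusted p = 0.160), and the mimic fold from -1.56 ± 0.65 to -6.31 ± 2.26. Of the 40 genes, 14 drew over 50% of their TPM from transcripts under 500 bases in 1 library or more, which is why levels are given here in CPM. The authors' deposited tables call Ccnd2 in 4 tubular comparisons, with log2 folds from -4.51 to -0.02.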

How the data were processed

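Libraries were made from poly(A) RNA and sequenced on an Illumina NextSeq 500, per the labels' protocols. Per the submitters' processing notes, the authors used Salmon 0.13.1, DESeq2 and GRCm38. The per-library files hold estimated counts, TPM and an effective length for each of 136202 transcripts, as the authors deposited them per the file headers. The 12 deposited comparison tables hold a base mean (a signal), a log2 fold with its standard error, and p-values with adjusted p-values, per the file headers; whether the folds were shrunk is not given in the sources used here. The test and filter behind the deposited p-values are likewise not given beyond the tool.

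Transcripts were summed to 53392 genes and the estimated counts rounded to whole numbers. Genes were kept by edgeR's filterByExpr (10 reads as its minimum, 15 in total), scaled by TMM and tested with edgeR 4.0.16 (glmQLFit, glmQLFTest; R 4.3.3, limma 3.58.1), with the 3 treatment groups of a cell type in 1 fit, or all 16 libraries for cell types and their difference in response. Scrambled miRNA is the control of each treatment test, so these tests share libraries. Alternatives were DESeq2 1.42.0, its size factors, no filter, an offset for transcript length, 2 groups only, a replicate block (the replicate number within a cell type, the library number across cell types), and leaving out each library. The fitting script was tested on simulated data. Medians and counts stand in for list tests. The gene lists and the 40 genes were chosen with earlier results of these data known. Values per library are given for Mki67, Top2a, Pcna, Ccnd1, Ccnd2, Ccnd3 and, in each role, the 3 genes with the smallest p for tubular and the 2 for endothelial exosomes against scrambled miRNA, and every called gene is named. Gene positions are from GENCODE M21 on GRCm38, and 40 of 40 matched. TPM was used for marker sums. Overlap was judged on TMM-scaled values. No unmatched columns were found.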

Additional observations from a re-analysis of the deposited data

How the results depend on the processing

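No called result changed direction under these alternatives, while 2 medians changed sign when 1 library was left out: that of mimic against exosomes in tubules (-0.12 to 0.15) and that of the mimic difference in response (-0.11 to 0.78). For exosomes against scrambled miRNA in tubules, the 4 calls became 9 without the filter on low reads (over 40 genes), 9 with DESeq2, and 0 with the offset for transcript length; DESeq2's size factors gave 4 and a fit of the 2 groups alone gave 3. Leaving out 1 library gave 0 to 6 calls, with 0 without each exosome library in turn and 1 without the second scrambled library, while the fold of Uhrf1 lay between -3.25 and -2.72 and that of Top2a between -2.29 and -1.77. The 0 calls for the mimic became 8 without the filter and 8 with DESeq2. In endothelial cells the 0 calls for exosomes became 1 without the filter, and those for the mimic 6 without the filter, 3 with DESeq2 and 2 with the 2 groups alone. Mimic against exosomes in endothelial cells gave 1 without the filter, and both tests of a difference in response gave 3. The cause of these changes was not tested; without the filter more genes are tested and genes of very few reads enter. The 39 calls of the authors' deposited tables became 18 at an adjusted p under 0.01 and 59 under 0.1.

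Leaving out 1 library at a time gave 0 to 1 calls for exosomes and 0 to 2 for the mimic in endothelial cells and 11 to 17 between cell types. The median log2 fold ranged from -0.995 to -0.71 for exosomes and -1.11 to -0.75 for the mimic in tubules, from -0.68 to -0.00 and -1.20 to -0.30 in endothelial cells, and from 0.28 to 0.60 between cell types. For the difference in response it ranged from 0.34 to 1.32 with exosomes and from -0.11 to 0.78 with the mimic. Where 1 mimic library was left out, the lone library was assumed to vary like the other groups.

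Replicate numbers recur across treatment groups and library numbers across the cell types, but the labels do not say that either marks a shared mouse. The correlation of deviations was -0.07 to 0.23 between libraries of the same replicate number in tubules, -0.01 to 0.24 in endothelial cells, and -0.11 to 0.09 between cell types for the same library number. For different numbers it was -0.23 to 0.13, -0.25 to 0.21 and -0.07 to 0.09. Deviations within such small groups are tied to one another, so these correlations cannot decide whether the numbers mark pairs. As the labels do not say so, the main fits did not take them as pairs. With the replicate block, tubular exosome calls were 2 (Uhrf1 and Cdt1), endothelial mimic calls 2, and calls between cell types 10.

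Depth is one limit: 13 of the 40 genes had a median under 10 reads, and Bub1, Ccnb1, Ccnb2 and E2f8 were not tested in tubules. Only 2 libraries carry each mimic group, and sham and untreated samples have no values per library here.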
